A study of Homo sapiens with 9 samples.

Results

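The 36 genes described here serve sterol and fatty acid synthesis, its control by the SREBP transcription factors, and sterol transport. Not all of them are SREBP targets. The genes were followed in HK-2 cells, a line of immortalised human proximal tubule cells. The members are a list of gene symbols, and all 36 were found among the 58884 gene identifiers of the deposited tables. A filter on low values, an FPKM (a read count scaled by transcript length and library depth) of at least 0.5 in at least 3 libraries, left 35 of them for testing. ABCG1, a sterol exporter, was left out at 0.0296 to 0.122 FPKM over the 9 libraries.

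RNA was sequenced from 3 groups of 3 libraries. Control cells are labelled untreated, while the protocol describes a vehicle for controls. The PM2.5 group received fine airborne particulate matter, labelled 24 h. The third group received lactoferrin, an iron-binding glycoprotein of milk, for 6 h and then PM2.5 for 18 h. The series text gives doses of 40 mg/ml for lactoferrin and 1 mg/ml for PM2.5, units that could not be checked. Every group was grown in the same serum-free keratinocyte medium with bovine pituitary extract and EGF. No group had lactoferrin alone, and the hours in PM2.5 differ between the exposed groups, so pretreatment and exposure time cannot be told apart. The labels do not say that replicates were separate cultures, so the p-values reflect only how these samples vary, and that variation may be technical.

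SREBPs are membrane-bound transcription factors of the endoplasmic reticulum. When membrane sterol is low, SCAP carries them to the Golgi, where proteases release the active part. When sterol is high, INSIG proteins hold SCAP and SREBP in the endoplasmic reticulum. SREBF2 mainly drives cholesterol synthesis and SREBF1 mainly fatty acid synthesis, INSIG1 is itself a target, and the LXR nuclear receptors turn on sterol export when oxysterols accumulate.

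The libraries held between 15313384 and 18820446 assigned reads, as rebuilt from the FPKM values. On the second principal component, with 13.5% of the variance, lactoferrin replicate 1 stood at 38.0 against 7.9 and -7.1 for its group. Control replicate 3 stood apart on the third, with 8.9%, at 27.1. Of 14 genes listed as proximal tubule markers, PAX8 and CDH6 reached 1 FPKM in every library. The other 12 stayed below it in every library, and SLC5A12 and SLC22A6 were listed at 0. The summed level of the 14 was 96.5 to 103 FPKM in control, 95.5 to 99.8 with PM2.5 and 78.8 to 92.7 with lactoferrin and PM2.5, and its part in the results was not tested. The sum rests almost wholly on PAX8 and CDH6, which differed in opposite directions, so it is not a measure of the proximal tubule cell type. PAX8 was at 52.0, 54.2 and 50.4 FPKM in control, 85.7, 78.8 and 82.3 with PM2.5 and 67.8, 78.3 and 75 after lactoferrin. CDH6 was at 43.2, 47.8 and 50.6 FPKM in control, 12.2, 15.6 and 15.5 with PM2.5 and 9.69, 12.5 and 15.7 after lactoferrin. The 4 distal nephron and 3 endothelial markers stayed below 1 FPKM, as did 3 of 4 immune and 3 of 4 fibroblast markers, with sums of at most 1.51 FPKM in any library.

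The first comparison asked what PM2.5 did to these genes. INSIG1 rose 5.75-fold, several sterol enzymes from squalene onward rose by less than 2-fold, and the mRNAs of SREBF1, SREBF2 and SCAP stayed near control. FASN, ACACA, SCD and FADS1, which make and desaturate fatty acids, rose, while ACSS2 and ACAT2, which handle acetyl units, fell. Of the 35 tested members, 15 rose and 3 fell in limma at a Benjamini-Hochberg adjusted p of 0.05, beside 18.5% of all 14454 tested genes called higher and 16.5% called lower. The median log2 difference was 0.20 for the members and 0 for all tested genes. The PM2.5 and control libraries did not overlap for 19 members that were higher and 4 that were lower, where 30.9% and 22.7% of all genes did so. In bulk RNA, fewer cells of a kind and less RNA per cell cannot be told apart.

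By role, 9 of 11 members from squalene to cholesterol rose and 1 fell. None of the 8 members of the early steps rose and 1 fell. Among regulators 1 of 5 rose, among transport genes and LXR targets 1 of 3 rose, and among fatty acid and glycerolipid genes 4 of 8 rose and 1 fell. The mean log2 level of the 35 members, relative to the control mean, was 0.25, 0.26 and 0.25 for PM2.5 replicates 1 to 3. It was 0.23, 0.27 and 0.27 for the pretreated replicates, against -0.03 to 0.02 in control. This mean joins genes that differ in direction. In lactoferrin replicate 1 the mean over the fatty acid genes was -0.01, within the control range of -0.06 to 0.06, that over the transport genes was -0.33 and that over the early steps 0.39.

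**Figure D1:**
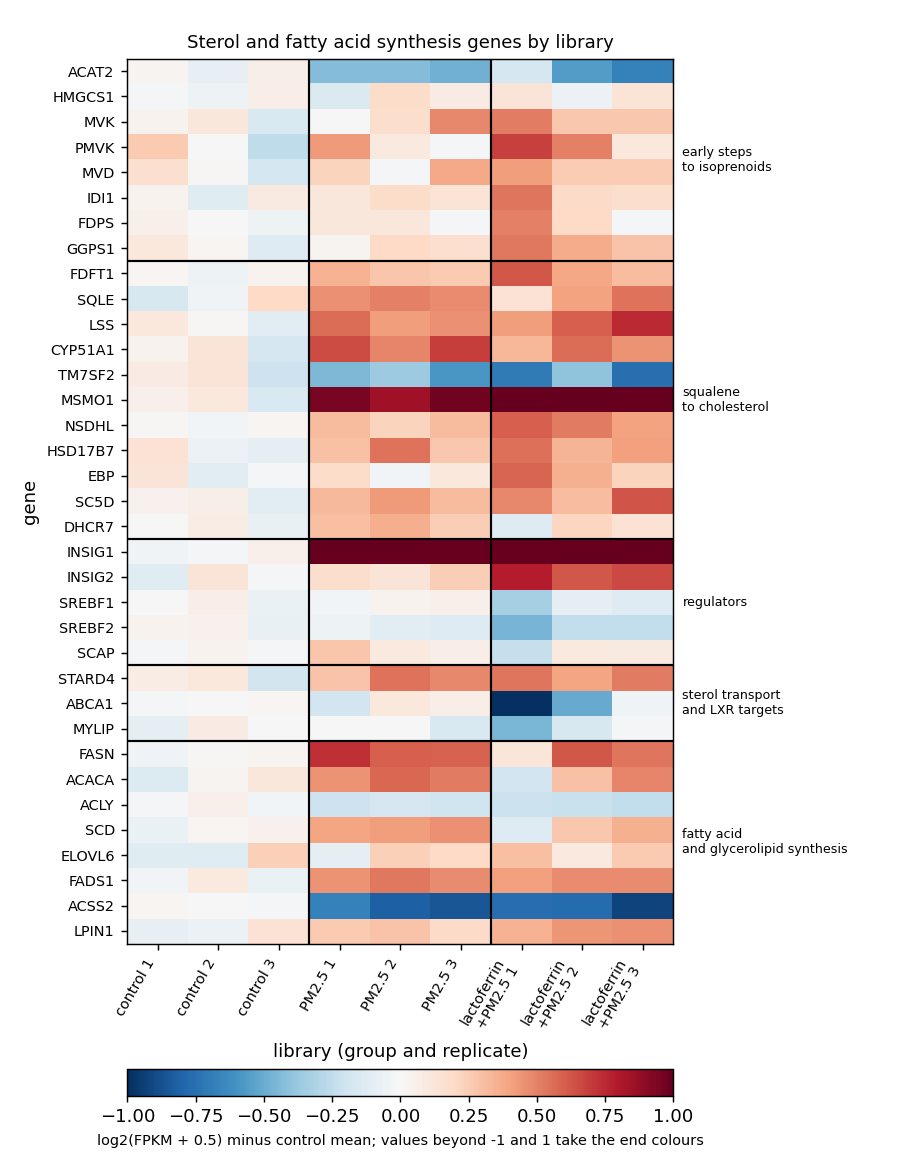
Heat map of the 35 tested members (rows, grouped by role) in the 9 libraries (columns), coloured by log2 level relative to the mean of the 3 control libraries; differences beyond -1 and 1 take the end colours. INSIG1 and MSMO1 are strongly raised in all 6 exposed libraries, and lactoferrin replicate 1 departs from its group at ABCA1, ACACA, FASN and SCD.

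Among the regulators, INSIG1, the sterol-responsive anchor of SCAP (ENSG00000186480, GRCh38 chromosome 7, 155297776 to 155310235, plus strand), carried the change. Its levels were 20.3, 20.5 and 20 FPKM in control, 125, 121 and 123 FPKM with PM2.5, and 113, 121 and 127 FPKM with lactoferrin and PM2.5. The 6 exposed libraries all lay far above the control libraries and overlapped each other. The PM2.5 difference was 2.52 ± 0.07 log2 units (SE, n = 3 per group; limma, Benjamini-Hochberg adjusted p = 1.34e-07). INSIG1 ranked 17 by log2 fold change and 3 by p among the 14454 tested genes, and leaving out any 1 library gave 2.5 to 2.54.

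INSIG2, the paralogue that is not a classical SREBP target (chromosome 2, 118088452 to 118110997, plus strand), had another pattern. It was at 6.15, 7.32 and 6.17 FPKM in control, 7.55, 7.43 and 8.27 FPKM with PM2.5, and 11.8, 10.7 and 11.2 FPKM with lactoferrin and PM2.5. These FPKM did not overlap between the 3 groups, with the pretreated cells highest. On the scaled log2 values used for the test, control and PM2.5 did overlap. Control replicate 2 was at 0.129 and PM2.5 replicate 2 at 0.127 relative to the control mean. The PM2.5 difference was small, 0.18 ± 0.09 log2 units (limma adjusted p = 0.14), while pretreated cells were 0.69 ± 0.09 above control (adjusted p = 0.000361). INSIG1 thus overlapped between the exposed groups, whereas INSIG2 was called against control in the pretreated group and missed the threshold in the PM2.5 group.

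The SREBP genes and their escort moved little with PM2.5. SREBF1 was at 4.69, 4.90 and 4.12 FPKM in control, 4.54, 4.86 and 5.01 with PM2.5, and 3.58, 4.40 and 4.35 with lactoferrin and PM2.5. SREBF2 was at 22.3, 22.2 and 19.1 FPKM in control, 20.7, 20.2 and 20.4 with PM2.5, and 15.4, 18.4 and 18.7 with lactoferrin and PM2.5. SCAP was at 8.97, 9.25 and 8.37 FPKM in control, 11, 9.85 and 9.80 with PM2.5, and 7.60, 9.90 and 9.98 with lactoferrin and PM2.5. Their PM2.5 differences were 0.02 ± 0.09, -0.10 ± 0.08 and 0.15 ± 0.10 log2 units, with limma adjusted p of 0.876, 0.394 and 0.308. These are mRNA levels; the cleavage that activates SREBPs was not measured.

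The bases before the transcription start are shown for 4 members, picked by their expression change or their motifs and not as typical of the list. RefSeq (GRCh38.p14) start sites were found for 31 of the 36 members, 45 starts in all. FDFT1, SQLE, ACAT2, ABCG1 and FASN had none and were not searched. In the 250 bases before each start, on either strand, the NF-Y box CCAAT (a site of the factor NF-Y, which often works beside SREBP) occurred in 26 of 45 member promoters (57.8%) and in 32.01% of all 35116 promoters in the table. The core of the sterol regulatory element, searched as TCACNCCAC on either strand, occurred in 1 member promoter (2.2%), that of SREBF2, and in 0.88% of all promoters. A match is a description and not a measured binding site. The search took exact matches only, so a sterol element with other letters, or outside the 250 bases, would be missed. Few matches therefore do not show that the members lack such elements. INSIG1 is shown as the member with the largest rise, MSMO1 as the sterol enzyme that rose most, with 4 CCAAT boxes (3 of them in the stretch shown), SREBF2 for its sterol element, and INSIG2 for having neither motif. MVK, which was not called, and NSDHL each had a start with 5 CCAAT boxes, more than MSMO1. Each stretch ends at the last base before the first annotated transcribed base, 5′ to 3′, with matches in capitals; ATTGG is CCAAT on the other strand.
INSIG1 promoter, chr7:155297628-155297775, plus strand: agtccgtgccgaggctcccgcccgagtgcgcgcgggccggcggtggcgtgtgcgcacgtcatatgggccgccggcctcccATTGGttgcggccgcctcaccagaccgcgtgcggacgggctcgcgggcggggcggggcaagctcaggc
MSMO1 promoter, chr4:165327419-165327622, plus strand: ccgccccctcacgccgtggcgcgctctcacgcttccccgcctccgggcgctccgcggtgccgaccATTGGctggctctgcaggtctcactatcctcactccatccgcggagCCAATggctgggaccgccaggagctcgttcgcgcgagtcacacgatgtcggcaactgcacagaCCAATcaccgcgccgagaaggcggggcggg
SREBF2 promoter, chr22:41832855-41833078, plus strand: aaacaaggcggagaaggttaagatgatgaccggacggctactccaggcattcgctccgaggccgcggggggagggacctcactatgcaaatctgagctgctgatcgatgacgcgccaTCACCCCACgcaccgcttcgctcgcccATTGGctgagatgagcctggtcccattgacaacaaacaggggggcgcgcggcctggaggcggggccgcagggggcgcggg
INSIG2 promoter, chr2:118088300-118088451, plus strand: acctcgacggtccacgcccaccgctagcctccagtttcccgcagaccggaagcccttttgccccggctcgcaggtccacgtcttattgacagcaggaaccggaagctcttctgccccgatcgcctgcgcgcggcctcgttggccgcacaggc

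From squalene to cholesterol, MSMO1 (sterol C4-methyl oxidase; chromosome 4, 165327623 to 165343160) rose most. Its levels were 31.1, 32.1 and 25 FPKM in control, 57.9, 55.0 and 60.6 FPKM with PM2.5, and 60, 62.8 and 65.3 FPKM with lactoferrin and PM2.5. Both exposed groups lay above every control library. The PM2.5 difference was 0.92 ± 0.09 log2 units, 1.89-fold (limma adjusted p = 6.6e-05). CYP51A1, lanosterol demethylase, was low at 1.37, 1.47 and 1.04 FPKM in control and rose to 2.33, 2.07 and 2.49 FPKM with PM2.5, 0.61 ± 0.11 log2 units (adjusted p = 0.00312). With lactoferrin and PM2.5 it was at 1.76, 2.21 and 2.04 FPKM, again above control. LSS, lanosterol synthase, was at 7.31, 6.76 and 5.74 FPKM in control, 10.1, 9.28 and 9.71 with PM2.5 and 9.10, 10.6 and 12 with lactoferrin and PM2.5, a PM2.5 rise of 0.48 ± 0.10 (adjusted p = 0.00596). For these 3 enzymes the PM2.5 call held in every alternative run.

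The other enzymes of the branch changed by less. SQLE, squalene epoxidase, was at 20.1, 21.8 and 24.0 FPKM in control and 30.9, 32.5 and 32.2 FPKM with PM2.5 (0.48 ± 0.12 log2 units, limma adjusted p = 0.0137). FDFT1 (squalene synthase, 0.29), NSDHL (sterol dehydrogenase, 0.29), HSD17B7 (ketosteroid reductase, 0.37), SC5D (sterol desaturase, 0.36) and DHCR7 (dehydrocholesterol reductase, 0.30) also rose, with adjusted p between 0.0156 and 0.0397. EBP, a sterol isomerase, differed by 0.09 ± 0.11 (adjusted p = 0.567). TM7SF2, a sterol reductase that overlaps in function with the lamin B receptor, was the member of the branch that fell, from 1.40, 1.45 and 0.976 FPKM to 0.804, 0.899 and 0.717 FPKM (-0.47 ± 0.14, adjusted p = 0.0328).

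Those smaller calls were lost in some runs that left out 1 library, which leaves 2 in its group, while the differences kept their direction. FDFT1 and DHCR7 also lost theirs with all libraries and the length trend removed (limma adjusted p = 0.0566 and 0.0652). DHCR7 lost its call with upper-quartile scaling as well (0.055). SQLE lost its call without control replicate 1 (adjusted p = 0.0517). FDFT1 and DHCR7 lost theirs without any 1 of the control or PM2.5 libraries, at 0.0593 to 0.113 and 0.0693 to 0.122. NSDHL lost it without control replicate 2 (0.0673) or PM2.5 replicate 1 (0.0591) or 3 (0.0621). HSD17B7 lost it without control replicate 2 (0.103) or 3 (0.091) or PM2.5 replicate 1 (0.0527) or 2 (0.109). SC5D lost it without control replicate 3 (0.0673) or PM2.5 replicate 2 (0.079) or 3 (0.0532). With control replicate 3 and lactoferrin replicate 1 both left out, HSD17B7 (0.0654) and SC5D (0.0556) lost their calls too. TM7SF2 lost it without control replicate 1 (0.0947) or 2 (0.115), without PM2.5 replicate 1 (0.0785), 2 (0.0539) or 3 (0.106), and with no scaling (0.0528). The count of members that rose went from 15 to 9 without control replicate 2 or any 1 PM2.5 library. The count that fell went from 3 to 1 without PM2.5 replicate 1 or 3, and with no filter on low values 9 rose and 1 fell. The calls that ended with no filter were those of FDFT1, TM7SF2, HSD17B7, SC5D, DHCR7, ACAT2, ACACA and SCD.

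**Figure D2:**
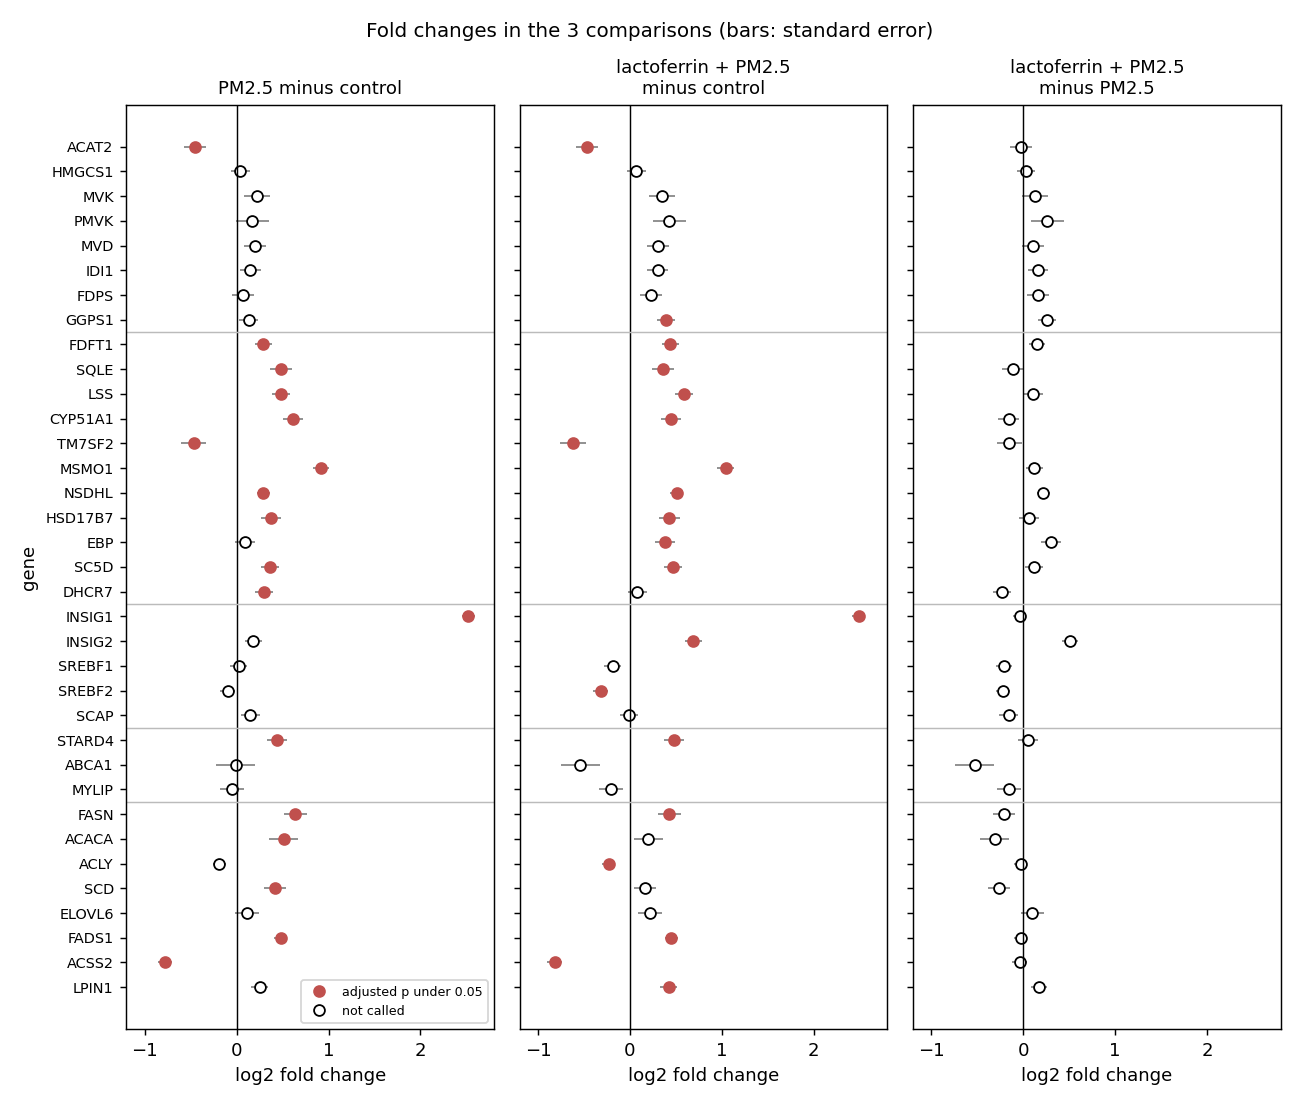
Log2 differences of the 35 tested members (rows, by role), with panels from left to right. These are PM2.5 against control, lactoferrin and PM2.5 against control, and lactoferrin and PM2.5 against PM2.5. Points are limma estimates and bars are standard errors, with members past an adjusted p of 0.05 filled. INSIG1 lies at 2.52 and 2.49 against control and at -0.04 between the exposed groups, where no member is filled.

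The early steps, from acetyl-CoA through mevalonate to isoprenoids, held no member that rose. HMGCS1, HMG-CoA synthase and a classical SREBP target, was at 13.1, 12.7 and 12.9 FPKM in control, 11.9, 15.2 and 14.4 with PM2.5, and 14.3, 12.9 and 15 with lactoferrin and PM2.5. The groups overlapped, with a PM2.5 difference of 0.04 ± 0.10 log2 units (limma adjusted p = 0.781). MVK, PMVK and MVD, the kinases and decarboxylase of the mevalonate route, differed by 0.22, 0.17 and 0.20 without passing the test. The isomerase IDI1 and the prenyl synthases FDPS and GGPS1 differed by 0.15, 0.07 and 0.13, also without passing it.

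ACAT2, the cytosolic acetoacetyl-CoA thiolase, fell. It was at 23.7, 21.8 and 22.4 FPKM in control, 16.9, 17.2 and 17.0 with PM2.5, and 20.4, 15.9 and 14.8 with lactoferrin and PM2.5. Neither exposed group overlapped control, and the PM2.5 difference was -0.45 ± 0.12 log2 units (limma adjusted p = 0.0181). The call ended without PM2.5 replicate 1 (0.0501) or 3 (0.058). ACAT2 exons share bases with TCP1 and SOD2 on the opposite strand, and the counting strand is not stated in the labels or files, so its reads cannot be told apart from theirs. CYP51A1 shares more, up to 2844 of its 3584 exon bases with 1 other gene (it overlaps AC000120.2 and AC000120.3 on its own strand and CYP51A1-AS1 on the other), so its level is uncertain. In GENCODE v29, 16 of the 36 members share exon bases with another gene, and FDPS, CYP51A1, HSD17B7 and SCD have named pseudogene copies that could take part of their reads.

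In sterol transport, STARD4, a cytosolic sterol carrier and SREBP2 target, rose from 4.92, 4.97 and 3.73 FPKM in control to 5.68, 7.05 and 6.83 with PM2.5 (0.44 ± 0.11 log2 units, limma adjusted p = 0.0118). With lactoferrin and PM2.5 it was at 6.83, 6.32 and 7.02 FPKM, above every control library. The LXR target ABCA1, which exports cholesterol to apolipoproteins, was at 12.4, 12.4 and 11.8 FPKM in control and 10.8, 13.7 and 13.5 with PM2.5, and the groups overlapped (-0.01 ± 0.21, adjusted p = 0.981). MYLIP, an LXR-induced ubiquitin ligase, differed by -0.05 (adjusted p = 0.787).

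Among fatty acid genes, FASN, fatty acid synthase, rose from 23.6, 24.2 and 22.8 FPKM in control to 40.1, 37.2 and 37.7 FPKM with PM2.5, 0.64 ± 0.12 log2 units or 1.56-fold (limma adjusted p = 0.00377). With lactoferrin and PM2.5 it was at 26.0, 38.0 and 36.1 FPKM, with replicate 1 near control and the other libraries near the PM2.5 range. ACACA, acetyl-CoA carboxylase, was at 7.61, 8.48 and 8.47 FPKM in control, 11.5, 12.9 and 12.6 with PM2.5 and 7.22, 10.5 and 12.3 with lactoferrin and PM2.5. Its PM2.5 rise was 0.51 ± 0.16 (adjusted p = 0.0309), and replicate 1 of the pretreated group lay below control. SCD, stearoyl-CoA desaturase, followed the same order, at 137, 144 and 137 FPKM, then 186, 193 and 202, then 129, 175 and 187, with a PM2.5 rise of 0.42 ± 0.12 (adjusted p = 0.0259).

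The ACACA and SCD calls ended without any 1 of several libraries. For ACACA these were control replicate 1 (adjusted p = 0.0979) or 2 (0.07) and PM2.5 replicate 1 (0.0574), 2 (0.0873) or 3 (0.0773). For SCD they were control replicate 1 (0.0802) or 2 (0.0664) and PM2.5 replicate 1 (0.0604), 2 (0.069) or 3 (0.0791). The FASN call held in every alternative run.

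FADS1, the delta-5 desaturase of polyunsaturated fatty acids, rose from 11.4, 12.4 and 10.2 FPKM to 15.9, 17.1 and 16.8 with PM2.5 (0.48 ± 0.07 log2 units, limma adjusted p = 0.00103) and stood at 15.4, 16.5 and 16.7 with lactoferrin and PM2.5. ACSS2, the cytosolic acetyl-CoA synthetase and an SREBP target, went the other way. It fell from 16.4, 15.9 and 14.8 FPKM to 9.81, 9 and 8.89 with PM2.5 (-0.78 ± 0.08, adjusted p = 0.00012) and was at 9.18, 9.35 and 8.48 with lactoferrin and PM2.5. No exposed library reached the control range. ACLY, ATP citrate lyase and a major source of cytosolic acetyl-CoA, was at 114, 119 and 105 FPKM in control and 99.2, 104 and 103 with PM2.5 (-0.19 ± 0.07, adjusted p = 0.0621). The elongase ELOVL6 differed by 0.11 (adjusted p = 0.52), and the phosphatidate phosphatase LPIN1 by 0.25 ± 0.09 (adjusted p = 0.0509).

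**Figure D3:**
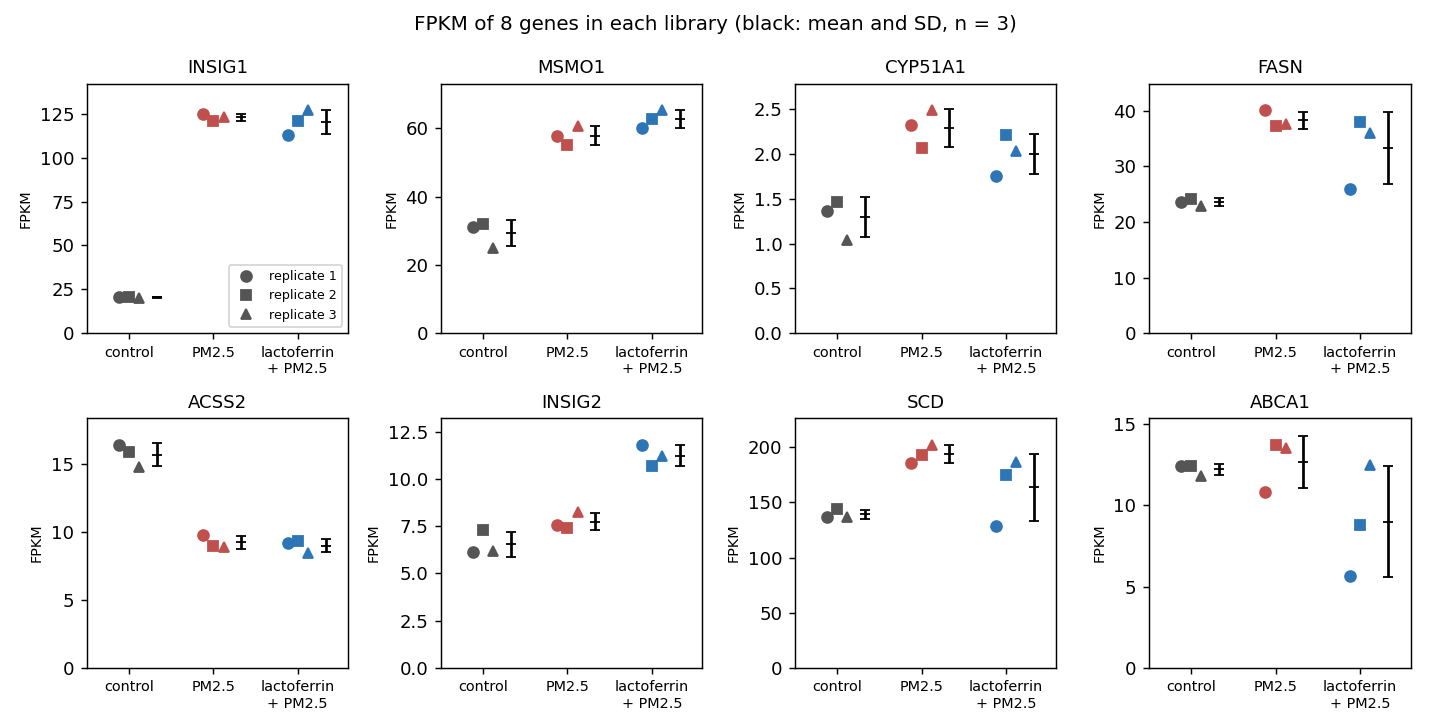
FPKM (vertical axes, linear from 0) of 8 members in each of the 9 libraries (1 point per library, with the group mean and SD in black, n = 3) for control, PM2.5, and lactoferrin with PM2.5. INSIG1 and MSMO1 are high in both exposed groups, INSIG2 is highest after lactoferrin, ACSS2 is low in both exposed groups, and the pretreated libraries are spread widely for FASN, SCD and ABCA1.

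The second comparison asked whether lactoferrin before PM2.5 changed these genes relative to PM2.5 alone. No member passed limma at an adjusted p of 0.05, beside 0.0484% of all tested genes. At an unadjusted p of 0.05, 8 of 35 members passed, 4 higher and 4 lower, where 12.2% of all genes did, 5.18% higher and 7.03% lower. The exposed groups did not overlap for 7 members that were higher and 3 that were lower after lactoferrin, against 11.3% and 9.79% of all genes. The median log2 difference was 0.03 for the members and 0 for all genes. limma-voom on rebuilt reads also called 0 members, while a fit with library weights called 5.

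The INSIG2 difference had the smallest adjusted p of the members. Pretreated cells were 0.51 ± 0.09 log2 units above PM2.5 alone, 1.42-fold, with the lowest pretreated library (10.7 FPKM) above the highest PM2.5 library (8.27 FPKM) and an adjusted p of 0.106. Without lactoferrin replicate 1 the difference was 0.46 (adjusted p = 0.225), and with library weights it was 0.45 (adjusted p = 0.0078). NSDHL, at 28.6, 27.8 and 26.0 FPKM against 23.5, 22.5 and 24.4, was 0.22 ± 0.07 higher (adjusted p = 0.362), and GGPS1, at 7.27, 6.61 and 6.29 FPKM against 5.01, 5.81 and 5.77, was 0.26 ± 0.10 higher (0.385). The SREBP genes lay lower in pretreated cells without overlap, SREBF1 by -0.21 ± 0.09 (0.404) and SREBF2 by -0.22 ± 0.08 (0.379); without lactoferrin replicate 1 these were -0.13 (0.814) and -0.15 (0.696). INSIG1, with a difference of -0.04 ± 0.07 (0.824), differed by less than its error.

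ABCA1 had the widest spread within a group. It was at 5.66, 8.81 and 12.5 FPKM in the pretreated libraries, an SD of 0.51 log2 units, where the median SD was 0.14 over the members and 0.17 over all genes. Its difference from PM2.5 was -0.53 ± 0.21 (limma adjusted p = 0.397) and without lactoferrin replicate 1 it was -0.26 (0.791). FASN, ACACA and SCD differed by -0.21, -0.31 and -0.26, none past the test, and without that library by -0.06, -0.12 and -0.11.

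Lactoferrin replicate 1 departed from its group along gene length. Genes in the shortest quintile of union exon lengths were a median of 0.11 log2 units higher in it than in the other 2 libraries of its group, and genes in the longest quintile -0.16. Replicate 3 of the group showed -0.09 and 0.16, control replicate 3 -0.06 and 0.14, and control replicate 1 0.06 and -0.14. PM2.5 replicate 1 showed 0.07 and -0.07, and PM2.5 replicate 3 -0.03 and 0.03. Among the members, ABCA1 (11350 bases) differed by -0.79, ACACA (13008) by -0.58, FASN (9364) by -0.46 and SCD (5362) by -0.44. At the other end, ACAT2 (4299) differed by 0.44, FDPS (3718) by 0.41, PMVK (1280) by 0.38 and IDI1 (4345) by 0.35. Other members lay off this order. LPIN1 (11861 bases) and FADS1 (10230) differed by only -0.10 and -0.06, while SQLE (4305), DHCR7 (4160) and MYLIP (3033) differed by -0.33, -0.31 and -0.36. The mean of the early-step enzymes was 0.15 and 0.07 in the other libraries of the group. Over the 35 members the correlation of the replicate 1 difference with log2 length was -0.52 (Pearson r), as a description. It was not particular to that library. The same correlation was 0.61 for lactoferrin replicate 3, 0.36 for control replicate 3 and 0.23 for PM2.5 replicate 3. It was -0.48 for control replicate 1 and -0.44 for PM2.5 replicate 1, and 0.02 to 0.31 for replicate 2 of each group. In every group it was thus negative for replicate 1 and positive for replicate 3. Whether same-numbered replicates shared a batch was not tested. Removing the trend on length within each library, with lowess, gave an ACACA difference from control of 0.43 in pretreated cells (adjusted p = 0.0101) against 0.20 (0.348) as measured. SCD stayed at 0.14 (0.342) against 0.16, and SQLE lost its call (0.32, 0.0627).

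**Figure D4:**
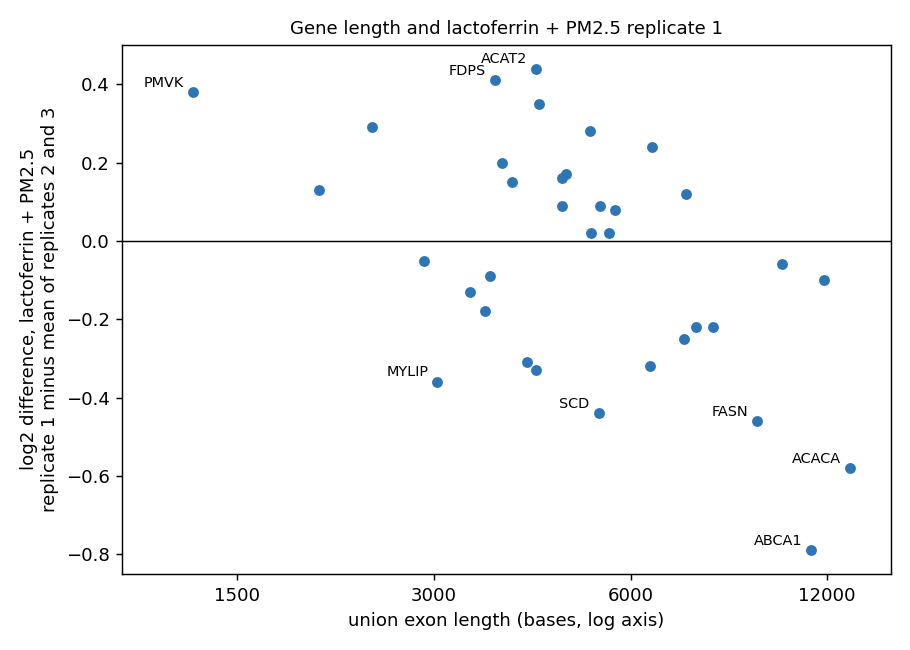
Log2 difference of lactoferrin replicate 1 from the mean of the other 2 libraries of its group (vertical axis) against union exon length in bases, on a log horizontal axis, for the 35 tested members (points). The long transcripts of ABCA1, ACACA and FASN lie lowest and the short transcript of PMVK is among the highest.

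The third comparison set pretreated, exposed cells against control. It shares its control libraries with the first comparison and its pretreated libraries with the second, so the results are not independent of them. Of 35 members, 16 rose and 5 fell in limma, beside 19.6% and 18.5% of all genes, with a median log2 difference of 0.35 for the members and -0.01 for all genes. The groups did not overlap for 19 members that were higher and 5 that were lower, against 26.8% and 20.7% of all genes. From squalene to cholesterol 9 of 11 rose and 1 fell, of the early steps 1 of 8 rose and 1 fell, of the regulators 2 of 5 rose and 1 fell, and of the fatty acid genes 3 of 8 rose and 2 fell.

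INSIG1 rose by 2.49 ± 0.07 log2 units (limma adjusted p = 8.2e-08), MSMO1 by 1.04 ± 0.09 (2.55e-05), INSIG2 by 0.69 ± 0.09, LSS by 0.59 ± 0.10 (0.00183), NSDHL by 0.51 ± 0.07 (0.00073) and LPIN1 by 0.42 ± 0.09 (0.00476). LPIN1 was at 4.56, 4.59 and 5.03 FPKM in control, 5.87, 6.07 and 5.76 with PM2.5 and 6.25, 6.85 and 7.02 after lactoferrin, with no overlap between the 3 groups. ACSS2 fell by 0.82 ± 0.08 (7.33e-05) and TM7SF2, at 0.592, 0.872 and 0.578 FPKM, by 0.62 ± 0.14 (0.00874). These 8 calls, with those of FDFT1, SC5D, STARD4 and FADS1, held in every alternative that tested them; TM7SF2 was not tested under the filter of at least 1 FPKM.

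Other calls against control were lost in some of the alternative runs. SREBF2 was -0.32 ± 0.08 lower (adjusted p = 0.0138). That call ended without control replicate 2 (0.0544), with no scaling (0.0537) and with only the 6 libraries compared (0.0692). EBP rose by 0.38 ± 0.11 (0.022), which ended without control replicate 2 (0.091) or 3 (0.0608) or lactoferrin replicate 2 (0.0528). The EBP call also ended with no filter (0.0608) and with control replicate 3 and lactoferrin replicate 1 both left out (0.0966). FASN rose by 0.43 ± 0.12 (0.0222) with all libraries and by 0.58 (0.000585) without lactoferrin replicate 1. Its call ended without control replicate 1 (0.0633) or 2 (0.0586) and without lactoferrin replicate 2 (0.0852) or 3 (0.0621). Without lactoferrin replicate 1, ACACA and SCD passed the test, at 0.39 (0.0153) and 0.31 (0.0129), where they had not with it (0.20 and 0.16). GGPS1 rose by 0.39 ± 0.10 (0.0118) and lost its call when control replicate 3 was left out along with lactoferrin replicate 1 (0.0574).

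The remaining calls were lost as follows, first in runs that left out 1 library. CYP51A1 (0.45 ± 0.11) and ACAT2 (-0.47 ± 0.12) lost theirs without lactoferrin replicate 2 (limma adjusted p = 0.0515 and 0.0554), and HSD17B7 (0.43 ± 0.11) without control replicate 2 (0.0549). SQLE (0.36 ± 0.12) lost its call without control replicate 1 (0.131) or 2 (0.0987), PM2.5 replicate 2 (0.0588) or 3 (0.0597), or lactoferrin replicate 2 (0.106) or 3 (0.108). ACLY (-0.23 ± 0.07) lost it without control replicate 1 (0.0547) or 2 (0.112), any PM2.5 library (0.0605 to 0.0648), or lactoferrin replicate 2 (0.0948) or 3 (0.0562). ACLY also lost its call with no scaling (0.0978) and with only the 6 libraries compared (0.159). SQLE did so with upper-quartile scaling (0.0544), with no filter (0.1) and with only the 6 libraries compared (0.065). HSD17B7 did so with control replicate 3 and lactoferrin replicate 1 both left out (0.0808). The count of members that fell went from 5 to 3 without control replicate 2 or lactoferrin replicate 2.

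Other genes of the pathway, 65 in a separate list with 64 tested, moved in the same comparisons. With PM2.5, 20 rose and 4 fell, with a median log2 difference of 0.14, where 18.5% and 16.5% of all tested genes were called. Sterol trafficking and esterification genes rose in 6 of 10 cases, and the SREBP processing and degradation machinery in 1 of 11. The smallest adjusted p belonged to MID1IP1, an activator of acetyl-CoA carboxylase, at 9.86, 9.23 and 8.21 FPKM in control, 27.8, 24.5 and 25.7 with PM2.5 and 23.6, 26.8 and 25.9 after lactoferrin (1.42 ± 0.08, limma adjusted p = 5.13e-06). ACSL1, which activates long-chain fatty acids, was next, from 3.46, 4.00 and 3.62 FPKM to 9.34, 9.54 and 9.62 with PM2.5 and 9.99, 9.59 and 10.9 after lactoferrin (1.21 ± 0.08, 9.23e-06). No exposed library of either gene overlapped control.

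In the other direction, SCD5, a second stearoyl-CoA desaturase, fell from 14.8, 15.5 and 12.8 FPKM to 8.44, 8.53 and 8.42 with PM2.5 (-0.77 ± 0.09, limma adjusted p = 0.000252), opposite to SCD. NCOR1, a corepressor of nuclear receptors, fell from 8.75, 9.80 and 12.1 FPKM to 4.54, 6.54 and 6.15 (-0.83 ± 0.16, 0.00432). Against control the pretreated group gave 18 rises and 6 falls in this list, beside 19.6% and 18.5% of all genes, with the same 4 genes in front: MID1IP1 at 1.39, ACSL1 at 1.30, SCD5 at -0.84 and NCOR1 at -0.91. Between the exposed groups none of the 64 passed, and 4 had an unadjusted p under 0.05, a smaller share than the 12.2% of all tested genes. The 2 with the smallest adjusted p in each direction are given as values. LPIN2, a phosphatidate phosphatase, had the smallest adjusted p (-0.32 ± 0.09, 0.32), followed among the lower genes by the SREBP site-1 protease MBTPS1 (-0.22 ± 0.08, 0.383). The higher ones were the sterol scaffold ERG28 (0.20 ± 0.07, 0.379) and UFD1 (0.26 ± 0.10, 0.397), which helps extract proteins from the endoplasmic reticulum for degradation.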

How the data were processed

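The deposited values were FPKM, 1 table per library, with the unit inferred from the values: multiplied by GENCODE v29 union exon length, 85.9% to 87.2% of the low values (at most 200 reads) were whole within 0.05. Per the submitters' processing notes, which give no order or settings, the tools of the authors included featureCounts 1.6.0, HISAT2 2.1.0, DESeq2 1.22.1 and Trimmomatic 0.38, on GRCh38. Neither annotation release nor strand setting is given in the sources used here. Symbols came from a gene name table (41967 identifiers) and coordinates from GENCODE v29.

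Each library of deposited FPKM was scaled by a factor from trimmed means of M values (between 0.93 and 1.03). Overlap between groups was judged on the FPKM before this scaling. A model of log2(FPKM + 0.5) was fitted with R 4.3.3 and limma 3.58.1, with the 3 groups as means over all 9 libraries, eBayes with trend and robust options, and Benjamini-Hochberg adjustment over 14454 genes. Fold changes are on that scale and understate those of low genes. The code was tested on simulated data. Chi-square per gene between replicates was 2.43 to 52.85, so no pair looked like 1 library deposited again; this does not show separate cultures. The members, the other lists and the tests were chosen with earlier results of these data known. Values were given in full for members called with PM2.5 at an absolute log2 difference of at least 0.5 and for regulators; others that are printed in full were chosen after their values were seen. Of the listed proximal tubule markers, 1 is not reported here. In the other pathway list, the 2 genes with the smallest adjusted p in each direction were named. Alternatives covered scaling, filter, pseudocount, limma-voom, a replicate block and leaving out each library; after the data were seen, removal of control replicate 3 with lactoferrin replicate 1, of the length trend, and library weights were added. Python 3.11.15 and matplotlib 3.10.9 drew the figures.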

Additional observations from a re-analysis of the deposited data

How the results depend on the processing

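INSIG1, MSMO1, STARD4, FADS1, LSS and ACSS2 kept direction and call against control in both exposed groups under every alternative; 8 of 18 PM2.5 calls and 12 of 21 calls of pretreated cells against control did so, of which TM7SF2 was not tested under the filter of at least 1 FPKM. No tested member that had been called reversed. Leaving out each library gave 9 to 16 members higher and 1 to 4 lower with PM2.5, 12 to 18 higher and 3 to 5 lower in pretreated cells against control, and 0 between the exposed groups. Over all genes the ranges were 1963 to 3091 higher and 1743 to 2768 lower (2670 and 2392 with all libraries), 2176 to 2831 and 1990 to 2644 (2837 and 2681), and 0 to 3 and 0 to 7 between the exposed groups (3 and 4).

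With no filter 9 members rose and 1 fell with PM2.5, in a test over more genes. Members lower with PM2.5 numbered 5 with control replicate 3 and lactoferrin replicate 1 both out and 5 with library weights. Members lower in pretreated cells against control numbered 3 with no scaling and 3 with only the 6 libraries compared. Between the exposed groups, genes called higher numbered 5 with a pseudocount of 1, 5 with limma-voom and 7 with the length trend removed. Genes called lower numbered 2 with only the 6 libraries, 11 with limma-voom, 8 with those 2 libraries out and 10 with the length trend removed. Library weights moved this most, to 996 genes higher and 1038 lower, with 4 members higher (NSDHL, EBP, INSIG2, LPIN1) and 1 lower (ABCA1), and gave 3742 and 4110 genes lower against control in PM2.5 and pretreated cells. These weights were estimated gene by gene, a method taken up after the default, which called more members, had stopped before convergence. The cause of these shifts was not tested.

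The labels state no pairing, and the main fit used none. Correlations were -0.07 to 0.18 for same-numbered replicates, most of them positive, and -0.18 to 0.14 for different-numbered ones. Whether same-numbered replicates shared a batch was not tested. With the replicate number as a block, 2878 of all genes were higher and 2799 lower with PM2.5, against 2670 and 2392 without it. A replicate block gave 15 members higher and 4 lower with PM2.5, 18 and 6 in pretreated cells against control, and 0 between the exposed groups, where 5 genes were higher and 8 lower overall. Members near 1 FPKM, such as CYP51A1 and TM7SF2, rest on few reads, and 3 libraries a group limit what small differences can pass.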
